A study of Mus musculus with 5 samples.

Results

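The interferon-stimulated genes described here are 35 genes that cells transcribe in response to interferon, chosen by symbol from 22098 gene symbols measured in cells sorted as Hardy fraction A from mouse bone marrow. Each gene was followed by 1 row of the deposited table, the transcript with the highest mean over the libraries, and all 35 were found. The libraries came from C57BL/6 mice aged 6 to 7 weeks and represent the first step of the B lineage in Hardy's scheme, labelled as proB cells and as not lineage-depleted. There were 2 wild-type libraries (wt), 2 of genotype Ikaros_ZnF1-/- (dF1, lacking the first zinc finger of Ikaros) and 1 of genotype Ikaros_ZnF4-/- (dF4, lacking the fourth), and the labels name no treatment for any group. The study asked which blood lineages Ikaros, a zinc finger transcription factor encoded by Ikzf1, affects. How the alleles were made is not described in the labels. The dF1 libraries are called biological replicates. For wt nothing says that separate mice were used, and its spread, on which the p-values rest in part, may be technical.

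Type I interferons bind a receptor made of Ifnar1 and Ifnar2, whose kinases Jak1 and Tyk2 activate STAT proteins, among them Stat2. With Irf9 these form a complex that binds the interferon-stimulated response element (ISRE), a repeat of GAAA units, in front of its target genes. The targets sense and destroy viral nucleic acid, block translation of viral RNA and feed back on the pathway. Plasmacytoid dendritic cells (pDC), which share bone marrow and several surface markers with early B lineage cells, are known as the main producers of type I interferon and hold parts of the pathway ready at rest.

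The ISRE repeat can be read in the promoters of several of the genes. RefSeq promoter windows of 300 bases (250 before to 50 after a transcript start, build GRCm38.p6) were matched by symbol for 26 of the 35 genes, with 33 windows in all. The core, a pair of GAAA units with any 2 bases between them, searched on both strands, was in 14 of the 33 windows (42.4%), against 1131 of 32851 windows of all genes (3.44%). Shown are the 160 bases before the transcript start for 5 genes with large dF1 differences and for Rsad2, high in dF4, all with a match in that stretch, read 5′ to 3′ on the gene's strand, with each match in capitals. A match on the opposite strand reads as a pair of TTTC units, and matches may overlap. The expression values were made on another build (mm9), and these coordinates locate the sequences only.
Ifit1, chr19:34640729-34640888, plus strand: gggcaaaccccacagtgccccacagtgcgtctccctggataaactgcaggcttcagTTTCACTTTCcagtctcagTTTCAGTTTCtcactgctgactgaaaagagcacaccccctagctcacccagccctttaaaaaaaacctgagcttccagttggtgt
Ifit3, chr19:34583369-34583528, plus strand: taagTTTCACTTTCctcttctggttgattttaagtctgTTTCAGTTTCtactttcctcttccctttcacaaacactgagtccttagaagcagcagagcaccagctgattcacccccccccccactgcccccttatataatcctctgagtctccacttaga
Isg15, chr4:156200819-156200978, minus strand: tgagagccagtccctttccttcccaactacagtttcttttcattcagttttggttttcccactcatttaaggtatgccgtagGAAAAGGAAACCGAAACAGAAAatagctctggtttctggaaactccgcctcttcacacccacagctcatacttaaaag
Oas3, chr5:120777660-120777819, minus strand: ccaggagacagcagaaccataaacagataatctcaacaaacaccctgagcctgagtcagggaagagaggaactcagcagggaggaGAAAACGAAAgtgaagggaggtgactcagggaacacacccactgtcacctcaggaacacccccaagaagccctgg
Gbp2, chr3:142620503-142620662, plus strand: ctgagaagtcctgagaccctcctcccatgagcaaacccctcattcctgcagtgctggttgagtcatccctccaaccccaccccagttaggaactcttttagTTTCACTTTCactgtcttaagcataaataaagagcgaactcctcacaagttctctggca
Rsad2, chr12:26456453-26456612, minus strand: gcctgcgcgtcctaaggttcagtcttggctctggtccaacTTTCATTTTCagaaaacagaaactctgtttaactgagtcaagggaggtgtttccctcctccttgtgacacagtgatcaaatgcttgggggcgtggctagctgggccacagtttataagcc
In Isg15 3 overlapping matches began 78, 72 and 66 bases before the start. Ifit1 held 2, beginning 104 and 85 bases before it, and Ifit3 held 2, at 156 and 122 bases. A match is a description of letters and not a measured binding site. The core was absent as letters from the windows of 12 of the 26 genes, among them Ifit2. In the same windows TGGGAA, which holds the GGGA core of Ikaros sites, searched on both strands, was in 11 of the 33 (33.3%, against 25.6%).

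Levels are in RPKM, which divides a transcript's reads by its length in kilobases and by the reads of the library. How reads of close copies were shared is not given, and even Gapdh was listed at 0.2 to 0.5 RPKM in every library. A comparison of levels between genes is therefore uncertain where close copies exist. Summed over transcripts the levels came to 286080 to 307910 in the wt and dF1 libraries and 345446 in dF4. The depth of the wt and dF1 libraries is unknown. The dF4 library, described by the submitters as of low coverage, held about 596000 reads, an estimate made from the steps between low values, so 95% Poisson intervals are given for it, which cover counting error only. As a check of the label, 12 early B lineage markers summed to 461.1 to 680.7 RPKM across the wt libraries, and 15 pDC markers to 5652 to 6514, so defining markers of the B lineage were present but markers of pDC were more abundant. In dF4 the pDC markers summed to 905.7 RPKM, with Cd300c, Klk1 and Cox6a2 listed at 0, and 12 neutrophil markers to 33825, against 408 to 1090 in wt. The female-specific Xist was between 77.7 and 93.2 RPKM in 3 libraries and at 0 in the dF4 library and in dF1 replicate 2, so by Xist both wt libraries were female, the dF1 libraries were of both sexes and the dF4 library was male. Sex and genotype cannot be told apart in the comparison of dF4 with wt. Within dF1, sex cannot be told apart from any other difference between replicate 1 (female) and replicate 2 (male). In such bulk samples fewer cells of a type and less RNA per cell cannot be told apart.

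At rest in wt, the 35 transcripts ranged from 0.6 to 114.9 RPKM in replicate 1 and from 0.7 to 109.5 in replicate 2, with medians of 11.9 and 12.3. The most abundant were Samhd1, an enzyme that degrades deoxynucleotides (114.9 and 106.8 RPKM), and Stat2, a signal transducer of the type I receptor (77.8 and 109.5). Adar, which edits adenosines in double-stranded RNA, was at 48.8 and 51.9 RPKM, and the ubiquitin ligase Trim25, which acts with the RNA sensor RIG-I, at 44.2 and 44.5. The lowest were Ifit3 (0.6 and 0.7 RPKM), the chemokine Cxcl10 (0.7 and 0.9), Ifit1 (1.5 and 1.3) and Oas2 (0.9 and 1.9). The wt libraries did not order alike over the genes. Of the 35, 21 were higher in wt replicate 2 and 14 in wt replicate 1.

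**Figure D1:**
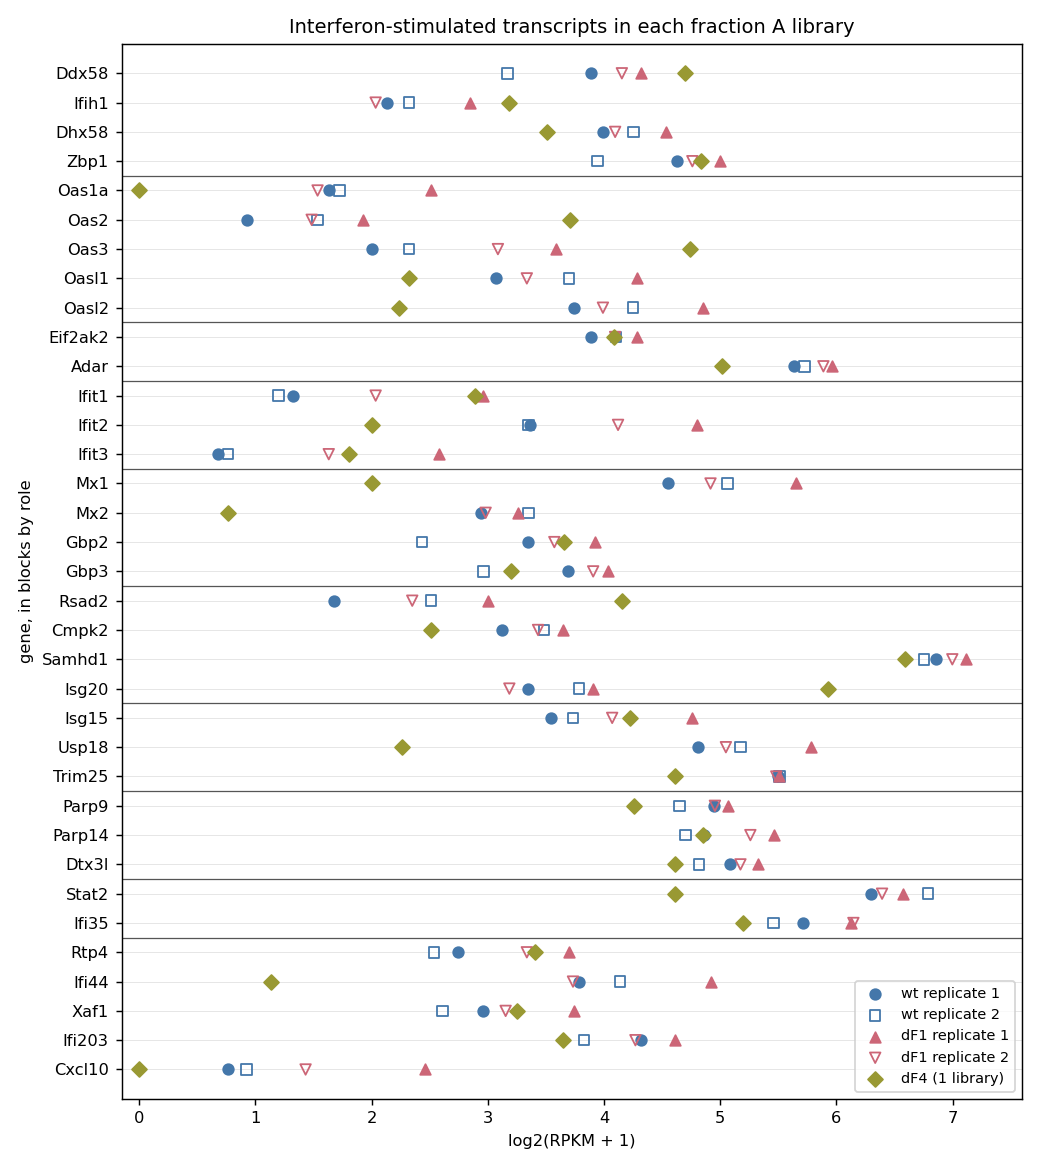
Level of each of the 35 transcripts in the 5 libraries, as log2(RPKM + 1), with genes in blocks by role and 1 symbol per library. Ifit1, Ifit3 and Oas3 lay higher in both dF1 libraries (red triangles) than in wt (blue), while the dF4 library (olive) lay far to the left for Mx1, Mx2, Usp18 and Ifi44 and to the right for Oas2, Oas3, Isg20 and Rsad2.

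In dF1 most of these transcripts were higher than in wt, by differing amounts in the dF1 libraries. The fitted difference was positive for 31 of the 35, where 51.5% of all 12215 tested transcripts were positive. Its median was 0.43 on the log2(RPKM + 1) scale, which shrinks differences between low values, against 0.01 over all tested transcripts. Both dF1 libraries lay above both wt libraries for 18 genes and below both for 0. Over all tested transcripts the shares were 16.8% and 17.9%. The other 17 overlapped. No single gene passed the test. With limma and Benjamini-Hochberg adjustment over the 12215 transcripts tested (those whose mean level reached 1 RPKM), 0 of the 35 were called higher and 0 lower, as were 0% and 0% of all, and the smallest adjusted p was 0.376. At an unadjusted p under 0.05 there were 11 of the 35, all higher in dF1, where 3.11% of all transcripts were higher at that level. Leaving out wt replicate 2, both dF1 libraries lay above wt for 29 genes (24.2% of all transcripts).

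The difference was larger in dF1 replicate 1, female by Xist as wt was, than in dF1 replicate 2, which was male. Sex and replicate cannot be told apart here. The dF1 replicate 1 library lay above both wt libraries for 32 of the 35 genes (27.3% of all transcripts), all but Mx2, Trim25 and Stat2. It lay above dF1 replicate 2 for 34, all but Ifi35 (39.2% of all transcripts). The dF1 replicate 2 library lay above both wt libraries for 18 (36.5% of all transcripts), between them for 12 and below both for 5, namely Ifih1, Oas1a, Isg20, Trim25 and Ifi44. The median over the genes, relative to the wt mean, was 0.71 in dF1 replicate 1 and 0.21 in dF1 replicate 2, against -0.02 and 0.04 over all transcripts. Without dF1 replicate 1 the median difference was therefore 0.21, and without dF1 replicate 2 it was 0.71. The 35 values summed to 687 and 710.6 RPKM in wt and to 1003 and 799 in dF1.

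**Figure D2:**
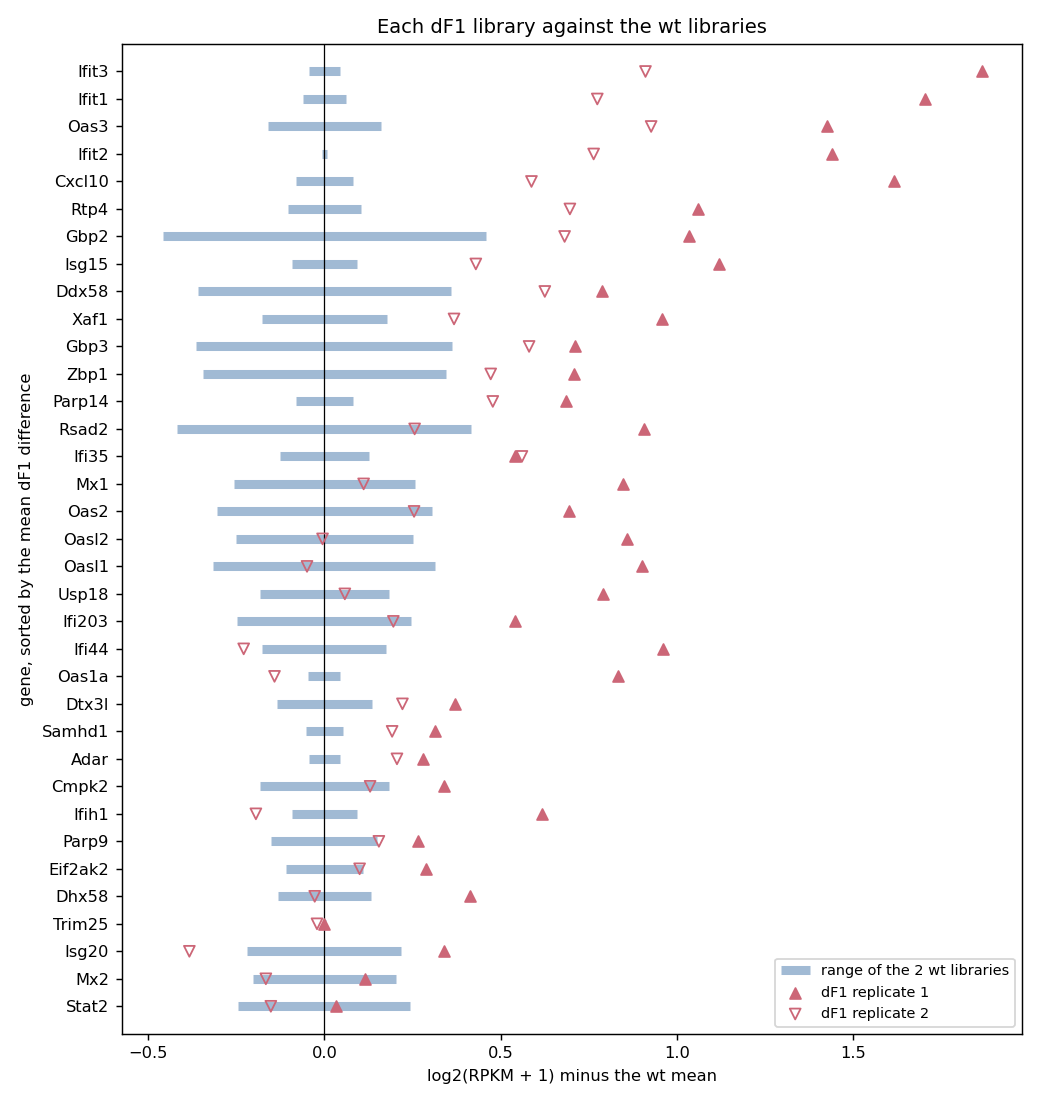
Each dF1 library minus the wt mean, on the log2(RPKM + 1) scale, for the 35 genes sorted by their mean dF1 difference; blue bars span the 2 wt libraries. Both triangles stand clear of the bar for 18 genes, and the filled triangle (dF1 replicate 1) is the right-hand one for all but Ifi35.

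**Figure D3:**
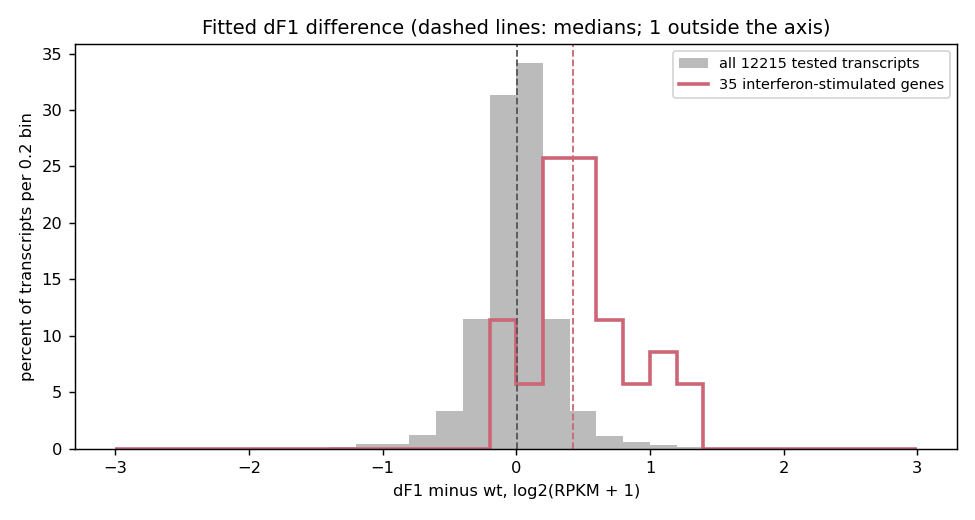
Distribution of the fitted dF1 minus wt difference on the log2(RPKM + 1) scale, as the percent of transcripts in each bin of 0.2, for all 12215 tested transcripts (grey) and the 35 genes (red), with medians of 0.01 and 0.43 as dashed lines. The 35 genes lie between -0.06 and 1.39.

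The summed markers of some other cells did not overlap between the same groups. The 10 NK markers summed to 722.8 to 1582 RPKM over the wt libraries and to 1617 to 1846 over the dF1 libraries, the 8 T cell markers to between 271.7 and 297.3 in wt and between 481.3 and 652.7 in dF1, and the 12 monocyte and macrophage markers to between 128.1 and 236.5 in wt and between 257.6 and 276.9 in dF1. Both dF1 libraries were above both wt libraries for 4 of the NK markers, 4 of the T cell markers and 3 of the monocyte and macrophage markers. The share over all tested transcripts was 16.8%. The T cell sum rests on Cd4 (146.3 and 154.1 RPKM for wt, 385.5 and 272.4 for dF1) and Cd8a (25.6 and 27.8 for wt, 131 and 94.6 for dF1), while Cd5 was below wt in both dF1 libraries. Without Gzma (356.2 and 195.5 RPKM for wt, 634.1 and 504.2 for dF1) the NK sums overlap. The monocyte and macrophage sums overlap without Ccr2 (121.4 and 46.6 for wt, 148.3 and 134.9 for dF1) and Ly6c2 (69 and 28.6, 108.2 and 63.4). The pDC markers summed to between 4853 and 5553 in dF1, with 6 of 15 below wt in both libraries (17.9% of all tested transcripts). No marker of these 4 lists was listed at 0 in a wt or dF1 library. The part of these cells in the interferon-stimulated values was not tested.

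The IFIT genes, whose proteins bind viral RNA and hold back its translation, were higher in both dF1 libraries than in wt. Ifit3 values were 0.6 and 0.7 RPKM for wt, 5 and 2.1 for dF1 and 2.5 for dF4. Ifit1 stood at 1.5 and 1.3 RPKM for wt, 6.8 and 3.1 for dF1 and 6.4 for dF4. Ifit2, more abundant, had 9.3 and 9.2 RPKM for wt, 26.8 and 16.4 for dF1 and 3 in dF4. For all 3 the dF1 libraries did not overlap with wt, and the ratio of the dF1 to the wt mean was 5.46 for Ifit3, 3.54 for Ifit1 and 2.34 for Ifit2. The log2 differences were 1.39 (SE 0.33, limma adjusted p = 0.486) for Ifit3, 1.24 (SE 0.33, adjusted p = 0.533) for Ifit1 and 1.10 (SE 0.24, adjusted p = 0.44) for Ifit2. The wt means of Ifit3 and of Cxcl10 were under 1 RPKM, so these 2 entered the test through the mutant libraries. Among the other 33 genes the median difference was 0.43, and 16 did not overlap.

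The oligoadenylate synthetases, which make the messenger that activates RNase L when they meet double-stranded RNA, ranged widely in the size of the difference. Oas3 was at 3 RPKM in wt replicate 1 and 4 in wt replicate 2, at 11 and 7.5 in dF1 and at 25.8 in dF4, with a dF1 difference of 1.18 (SE 0.23, adjusted p = 0.376), the smallest adjusted p of the 35. Oas2 had 0.9 and 1.9 RPKM in the wt libraries, 2.8 and 1.8 in those of dF1 and 12.1 in dF4. Oas1a, one of several close copies among which reads may be shared, had 2.1 and 2.3 RPKM for wt and 4.7 and 1.9 for dF1 and was listed at 0 in dF4. Only Oas3 of these showed no overlap between dF1 and wt. The related Oasl1, which holds back translation of Irf7, was at 7.4 and 12 RPKM in the wt libraries, 18.5 and 9.1 in those of dF1 and 4 in dF4. Oasl2 followed the same order, with 12.4 and 18 RPKM for wt, 27.9 and 14.9 for dF1 and 3.7 in dF4. For both, dF1 replicate 1 was the highest library and dF1 replicate 2 lay between the wt libraries.

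Of the sensors, Ddx58 (RIG-I), which recognises viral RNA ends, was at 13.8 and 8 RPKM in the wt libraries, 18.9 and 16.8 in those of dF1 and 25 in dF4. Zbp1, a sensor of Z-form nucleic acid that can trigger cell death, had 23.8 and 14.4 RPKM for wt, 30.9 and 26.1 for dF1 and 27.5 in dF4. Both were above wt in each dF1 library, but the wt libraries were themselves well apart. Ifih1 (MDA5), a sensor of long double-stranded RNA, had 3.4 and 4 RPKM in the wt libraries, 6.2 and 3.1 in those of dF1 and 8.1 in dF4. Dhx58 (LGP2), which tunes the other RNA sensors, had 14.9 and 18.1 RPKM for wt, 22.2 and 16.1 for dF1 and 10.4 in dF4. For Ifih1 and Dhx58 the dF1 replicate 2 value was within or below the wt range. Eif2ak2 (PKR), the kinase that stops translation on binding double-stranded RNA, stayed between 13.8 and 18.5 RPKM in every library, and Adar was at 61.3 and 58.2 in dF1, above both wt values, and at 31.4 in dF4.

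The ISG15 system tags proteins with the ubiquitin-like Isg15. Isg15 was at 10.7 and 12.3 RPKM in the wt libraries, 26.1 and 15.8 in those of dF1 and 17.7 in dF4, with a dF1 difference of 0.77 (SE 0.25, adjusted p = 0.645) and no overlap. Usp18, which removes the tag and damps the interferon receptor, had 27 and 35.1 RPKM for wt, 54 and 32.1 for dF1 and 3.8 in dF4. Trim25 was the steadiest of the 35 in wt and dF1, between 43.7 and 44.5 RPKM, and was at 23.4 in dF4.

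Parp9 and Dtx3l form a complex that modifies histones and viral proteins, and Parp14 is a relative of Parp9. Parp14 had 28.1 and 25 RPKM in the wt libraries, 43.2 and 37.3 in those of dF1 and 27.9 in dF4, with a dF1 difference of 0.58 (SE 0.13). Dtx3l had 33 and 27.2 RPKM for wt, 39 and 35.1 for dF1 and 23.4 in dF4. Parp9 had 29.9 and 24.1 RPKM in the wt libraries, 32.5 and 30 in those of dF1 and 18.1 in dF4, so its dF1 replicate 2 cleared the wt range by 0.1 RPKM. All 3 were above wt in both dF1 libraries. Ifi35, which binds Nmi and acts in innate signalling, was at 51.4 and 43 RPKM for wt, 68.8 and 69.8 for dF1 and 35.7 in dF4, with a dF1 difference of 0.55 (SE 0.13), and was the one gene higher in dF1 replicate 2 than in dF1 replicate 1. Stat2 was at 94.4 and 83 RPKM in dF1, within the wt range, and at 23.5 in dF4.

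Among the GTPases, Mx1 and Mx2 trap viral ribonucleoproteins, and C57BL/6 mice carry a defective Mx1 allele. Mx1 was at 22.4 and 32.4 RPKM in the wt libraries, 49.3 and 29.2 in those of dF1 and 3 in dF4, and Mx2 at 6.7 and 9.2 for wt, 8.6 and 6.9 for dF1 and 0.7 in dF4. Neither separated dF1 from wt. The guanylate-binding proteins, which act on the membranes of intracellular pathogens and also respond to interferon gamma, did. Gbp2 had 9.2 and 4.4 RPKM in the wt libraries, 14.2 and 10.9 in those of dF1 and 11.6 in dF4 (dF1 difference 0.86, SE 0.34, adjusted p = 0.694), and Gbp3 had 11.9 and 6.8 for wt, 15.4 and 14 for dF1 and 8.2 in dF4. For both, wt replicate 1 was the higher of the wt libraries.

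Of the enzymes of nucleotides and RNA, Rsad2 (viperin), which makes a chain-terminating nucleotide, had 2.2 and 4.7 RPKM in the wt libraries, 7 and 4.1 in those of dF1 and 16.8 in dF4. Its neighbour Cmpk2, a mitochondrial nucleotide kinase, had 7.7 and 10.2 RPKM for wt, 11.5 and 9.8 for dF1 and 4.7 in dF4. The exonuclease Isg20 had 9.2 and 12.8 RPKM in the wt libraries, 14 and 8.1 in those of dF1 and 59.9 in dF4. These 3 did not separate dF1 from wt, whereas Samhd1, at 137.9 and 126.7 RPKM in dF1 and 95.5 in dF4, was above wt in both dF1 libraries by a difference of 0.25 (SE 0.12).

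Of the remaining genes, the receptor-transporting protein Rtp4 was at 5.7 and 4.8 RPKM for wt, 12 and 9.1 for dF1 and 9.6 in dF4, with a difference of 0.88 (SE 0.19, adjusted p = 0.428). Cxcl10, which draws T and NK cells through Cxcr3, was at 0.7 and 0.9 RPKM in the wt libraries and 4.5 and 1.7 in those of dF1 and was listed at 0 in dF4, with a dF1 difference of 1.10 (SE 0.36, adjusted p = 0.64). The pro-apoptotic Xaf1 had 6.8 and 5.1 RPKM for wt, 12.4 and 7.9 for dF1 and 8.5 in dF4. These 3 did not overlap between dF1 and wt. Ifi44 had 12.8 and 16.6 RPKM in the wt libraries and 29.3 and 12.3 in those of dF1 and 1.2 in dF4, so that dF1 replicate 1 lay above wt and dF1 replicate 2 below it. Ifi203, a member of a family of DNA-binding proteins with close copies, had 19 and 13.2 RPKM for wt, 23.5 and 18.3 for dF1 and 11.5 in dF4.

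The 17 overlapping genes were mostly higher in wt replicate 2 than in wt replicate 1 (16 of 17), and the 18 that did not overlap mostly lower (5 of 18 higher in wt replicate 2). A high wt replicate 2 makes an overlap more likely, so this split describes the libraries and supports nothing further. The median dF1 difference was 0.84 over the 8 genes with a wt mean under 5 RPKM, 0.43 over the 17 from 5 to 20 and 0.27 over the 10 at 20 or more. The genes were divided by the wt values that are also subtracted, so such an order is partly built in. The lowest group holds Ifit3 and Cxcl10, which entered the test through the mutant libraries. The 14 genes with an ISRE core in their window had a median dF1 difference of 0.68 (8 of 14 without overlap), with a range of -0.06 to 1.39. The 12 with a window lacking it had a median of 0.33 (6 of 12), with a range of -0.02 to 1.10. Over all tested transcripts 16.8% lay above wt without overlap. The 8 include Ifit3 and Cxcl10, which entered the test through the mutant libraries, so nothing is drawn from this grouping. The ranges overlap, and the 14 include Stat2, whose dF1 difference was -0.06.

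More than 1 transcript was listed for 7 genes. For Zbp1 the second transcript (NM_021394) was at 12.4 and 7.9 RPKM in the wt libraries and 17 and 10.5 in those of dF1, so there dF1 replicate 2 lay inside the wt range. The second Mx1 row (NR_003520) had 15.3 and 21.8 RPKM for wt, 32.7 and 20.2 for dF1 and 1.9 in dF4, the same order of libraries as the first. How the authors divided reads between such rows is not stated.

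The genes upstream in the pathway were read from lists of ligands, receptors, regulators and sensing. Of 19 interferon genes, 16 were listed at 0 in every library. Ifng was at 11.4 and 4.6 RPKM in the wt libraries, 7.3 and 6.4 in those of dF1 and 12.5 in dF4. Ifnb1 was at 0.7 in dF1 replicate 1, 0.1 in wt replicate 1 and listed at 0 in the others. Ifnk was at 0.3 and 0.1 in the same libraries and listed at 0 in the others. Both were too low to be tested. Of 11 receptor and signalling genes 0 passed the test, with a median difference of 0.07. Both dF1 libraries lay above wt for 1 of them (Jak2) and below for 4, where the shares over all tested transcripts were 16.8% and 17.9%. Ifnar1 was at 59.7 and 60.2 RPKM for wt and 45.2 and 50.3 for dF1 (difference -0.32, SE 0.12, adjusted p = 0.668). Jak1, at 195.9 and 103.7 RPKM for wt and 210.2 and 183.5 for dF1, and the gamma receptor chain Ifngr1, at 110.4 and 58.7 against 116.1 and 104.8, overlapped between dF1 and wt, with the wt libraries far apart.

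Of 11 regulators 0 passed, with a median of 0.04. Both dF1 libraries lay above wt for 3 of them and below for 0 (16.8% and 17.9% of all tested transcripts). The largest difference was that of Irf7, itself interferon-induced and the factor that drives type I interferon production in pDC. It was at 133.3 and 170.4 RPKM in the wt libraries, 340.4 and 205.6 in those of dF1 and 36.1 in dF4 (dF1 difference 0.81, SE 0.28, adjusted p = 0.662). In wt and dF1 its libraries stood in an order that 5 of the 35 genes had, among them Ifit3 and Isg15. The commonest order, in 12 of the 35, had wt replicate 2 lowest instead of wt replicate 1. The dF4 value of Irf7 was the lowest of its 5 libraries. The feedback inhibitor Socs1 was at 6.1 and 3.7 RPKM for wt and 6.6 and 7.4 for dF1, and the phosphatases Ptpn11 and Ptpn2 differed by 0.27 each. Of 13 tested genes that lead from nucleic acid sensing to interferon 0 passed and the median was 0.12. Both dF1 libraries lay above wt for 6 of the 13 and below for 0, beside the same shares of all transcripts. The adaptor Mavs was at 20.9 and 15.4 RPKM in the wt libraries and 25.9 and 25.6 in those of dF1. Tlr9, the endosomal DNA sensor of pDC, was at 76.3 and 85.2 RPKM for wt, 93.1 and 97.2 for dF1 and 47.8 in dF4.

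A wider list holds 58 other tested genes known to be induced by interferon. Of these 0 passed, 39 were positive, 23 were above wt in both dF1 libraries and 7 below, and the median was 0.20. Over all tested transcripts 51.5% were positive, 16.8% were above and 17.9% below. Ifi204, a DNA sensor, was at 0.4 and 0.5 RPKM in the wt libraries and 3 and 1.6 in those of dF1, so it entered the test through the mutant libraries. Ifitm3, which blocks fusion of viruses with membranes, was at 7.2 and 10.9 RPKM for wt, 20.3 and 13.8 for dF1 and 170.4 in dF4. The chemokine Ccl5, also made at high levels by T and NK cells, was at 612.1 and 354.5 RPKM in the wt libraries, 896.3 and 769.8 in those of dF1 and 320.1 in dF4. Ly6a (Sca-1), also a marker of stem and progenitor cells, went the other way, with 146.1 and 105.5 RPKM for wt and 67.2 and 28.1 for dF1 (difference -1.49, SE 0.43, adjusted p = 0.586).

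**Figure D4:**
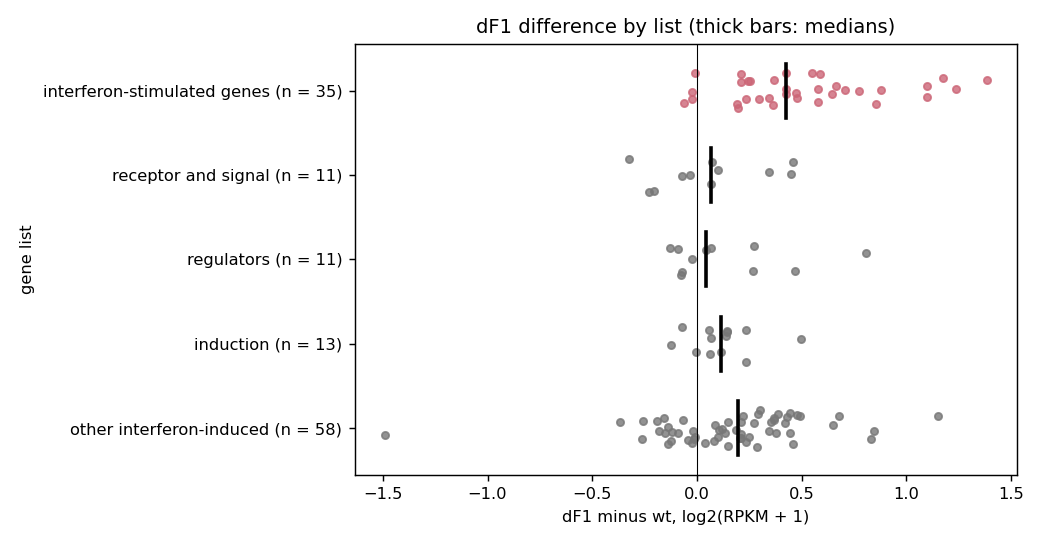
Fitted dF1 minus wt difference on the log2(RPKM + 1) scale for the 35 interferon-stimulated genes and for 4 lists of pathway genes, 1 point per gene with vertical jitter, thick bars at the medians. The medians are 0.43 for the 35 genes, 0.07, 0.04 and 0.12 for the receptor, regulator and induction lists and 0.20 for the other interferon-induced genes, where Ly6a is the point at -1.49.

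In the single dF4 library the genes lay on both sides of wt, as transcripts in general did. It lay above both wt libraries for 13 of the 35 and below both for 19, where the shares over all transcripts were 44.7% and 42.3%. The median difference from wt was -0.34, against 0.02 over all transcripts. The Poisson interval of dF4 lay wholly above both wt values for 7 genes and wholly below for 9, against 20% and 13.6% of all transcripts. The number above was thus at the share over all transcripts. By a size rule (difference of at least 1, wt libraries within 0.5 of each other, mean of at least 5 RPKM) 21 of the 35 could be counted, of which 2 were higher and 5 lower. The shares over all 7867 countable transcripts were 7.75% and 10.4%. Without wt replicate 1 the median was -0.18 (0.08 over all transcripts), and 8 were lower and 5 higher. Without wt replicate 2 it was -0.48 (-0.03 over all), and 7 were lower and 3 higher, with 29 counted in each. The shares of all transcripts are not given for these settings, so these counts cannot be set against 7.75% and 10.4%. There is no replicate of dF4 and no test.

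Those with the interval below wt were Ifi44, Mx1, Usp18, Mx2, Stat2, Oasl2, Ifit2, Trim25 and Adar. Usp18 had 3.8 RPKM in dF4 (interval 1.03 to 9.64, about 4 reads) against 27 and 35.1 in wt. Mx1 had 3 RPKM (0.972 to 6.99, about 5 reads) against 22.4 and 32.4. Stat2, at 23.5 RPKM (18 to 30.2, about 62 reads) against 77.8 and 109.5, rests on more reads. Ifi44, at 1.2 RPKM (0.139 to 4.16), and Mx2, at 0.7 (0.0175 to 3.84), rest on about 2 reads and 1 read. Oas1a and Cxcl10 were listed at 0, which at 3 reads allows up to 2.66 and 4.72 RPKM, so a difference from wt was not detectable at this depth.

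Those with the interval above wt were Oas3, Oas2, Isg20, Rsad2, Ifit1, Ddx58 and Ifih1. Oas3, at 25.8 RPKM (20.3 to 32.5, about 73 reads), was 7.37-fold above the wt mean, and Oas2, at 12.1 (8.05 to 17.5, about 28 reads), was 8.64-fold above it. Isg20 was at 59.9 RPKM (41 to 84.6, about 32 reads), with its second transcript (NM_020583) at 20.2 against 2.7 and 5 in wt. Rsad2 was at 16.8 RPKM (11.9 to 23.1, about 38 reads), and Ddx58 at 25 (19.6 to 31.4, about 74 reads). Members of a family lay on both sides of wt in dF4, with Oas2 and Oas3 above wt and Oasl2 below, and with Ifit1 above and Ifit2 below. Beside this library stand the marker sums already given. All 15 pDC markers were lower than in both wt libraries, all 12 neutrophil markers were higher, and 10 of 12 monocyte and macrophage markers were higher (1416 RPKM summed). All 8 erythroid markers were higher as well (1219 RPKM summed, against 76 to 86.5 in wt), and so were 8 of 12 early B lineage markers (1175 RPKM summed). The part of these cells in the dF4 values was not tested.

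**Figure D5:**
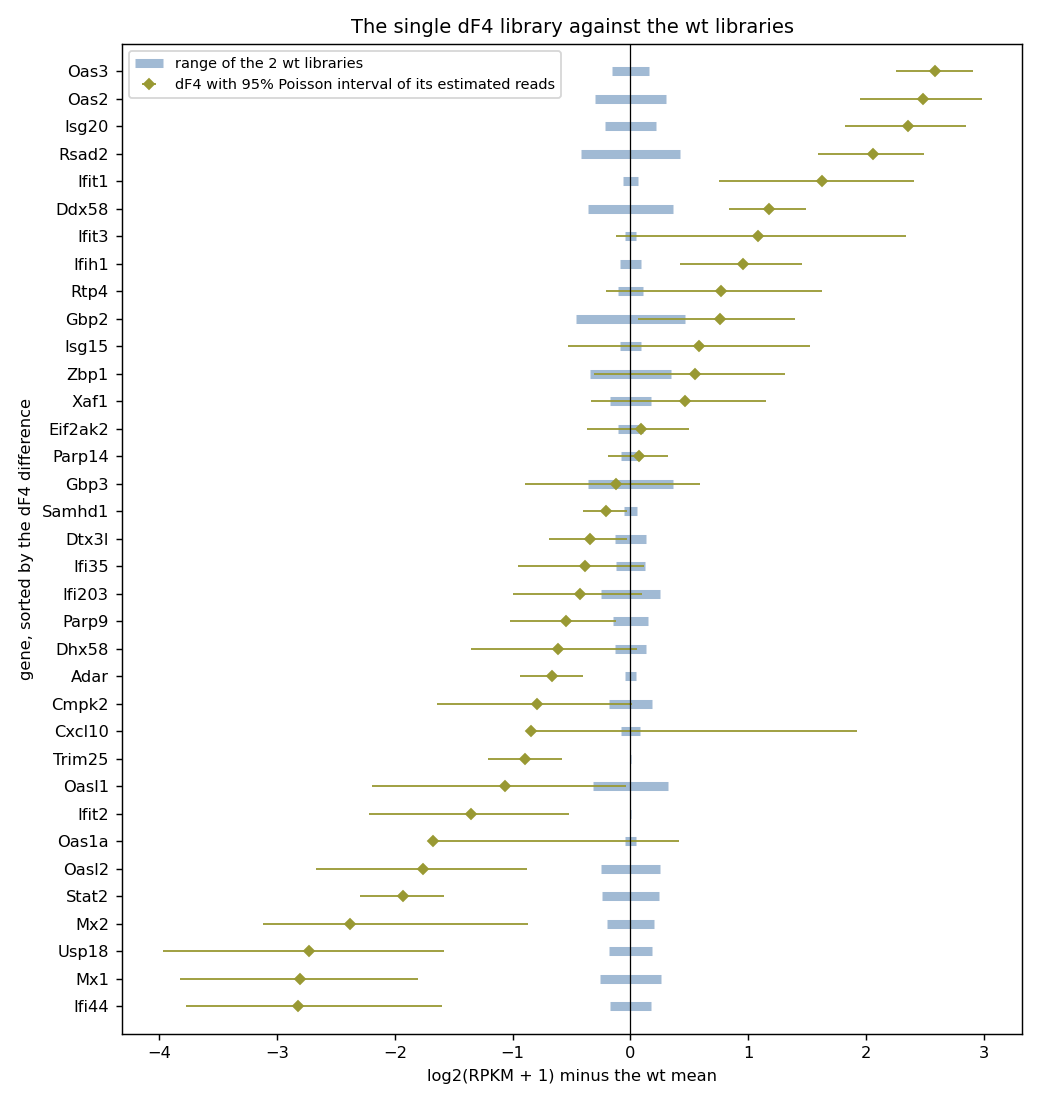
The dF4 library minus the wt mean on the log2(RPKM + 1) scale for the 35 genes, sorted by that difference, with lines for the 95% Poisson interval of its estimated reads and blue bars for the range of the 2 wt libraries. Oas3 and Oas2 lie near 2.5 above wt and Ifi44, Mx1 and Usp18 more than 2.5 below, while the widest lines belong to genes with few reads.

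The dF4 and dF1 comparisons share the wt libraries, so their values are set side by side only. Mx1, Usp18, Ifi44 and Oasl2, low in dF4, were each highest in dF1 replicate 1 and within or below the wt range in dF1 replicate 2. This is not particular to genes low in dF4. Of the wt and dF1 libraries, dF1 replicate 1 was highest for 31 of the 35. The dF1 replicate 2 library was within the wt range for 12 and below it for 5. Oas2, Rsad2, Isg20 and Ifih1, high in dF4, were also highest in dF1 replicate 1 among these libraries and not above wt in dF1 replicate 2. Ifit2, Adar, Samhd1, Parp9, Dtx3l, Ifi35 and Cxcl10 were above wt in both dF1 libraries and below it in dF4, where Cxcl10 was listed at 0. Of these only Ifit2 and Adar had a dF4 interval wholly below wt. Oas3, Ddx58, Zbp1, Ifit1, Ifit3, Gbp2, Isg15, Rtp4 and Xaf1 were above wt in all 3 mutant libraries. Among them only Oas3, Ddx58 and Ifit1 had a dF4 interval wholly above wt. Over all tested transcripts dF4 lay above both wt libraries for 44.7% and below both for 42.3%, so nothing is drawn from these groups. Relative to the dF1 mean, the median over the 35 genes in dF4 was -0.75, against 0.01 over all transcripts.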

How the data were processed

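The 5 libraries (2 wt, 2 dF1, 1 dF4) were of mRNA and used the Illumina TruSeq kit, per the labels' protocols. Per the file headers, the values the authors deposited are RPKM of RefSeq transcripts, rounded to 1 decimal. TopHat, bedtools and build mm9 are named, with no version, in the submitters' processing notes. Whether strand was used, and how reads of close copies were shared, is not given in the sources used here, so such copies and overlapping genes are uncertain. The table held 26531 transcripts, and 1 line naming no gene was left out. Libraries were grouped by the labelled genotype, and 0 columns of sample values were left unused.

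On log2(RPKM + 1), a two-sided test of dF1 against wt (2 libraries each) used limma 3.58.1 (eBayes with a trend; R 4.3.3) over transcripts whose mean in the 5 libraries reached 1 RPKM, and adjusted p-values (Benjamini-Hochberg) were held to 0.05. For 1 gene alone, 2 against 2 cannot go below an exact permutation p of 0.333. The dF4 read number comes from low values multiplied by length, of which 80.8% of 4253 were whole multiples of the 1.68 RPM that 1 read is worth, within 0.1 read. Intervals are exact Poisson at 95%.

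The 35 genes and the lists were chosen with earlier results of these data known. All 35 are named. Statistics are given for the 8 largest dF1 differences without overlap and for a few others chosen after their values were seen. From each other list up to 4 genes with the largest difference are given, with Ifnb1 and Ifnk added after their values were seen. One gene of the receptor list is not reported here. Alternatives were other pseudocounts, filters, scalings, summed transcripts, a replicate block, robust variances, 3 groups in 1 fit and leaving out each library.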

Additional observations from a re-analysis of the deposited data

How the results depend on the processing

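Under every alternative for dF1 that kept all libraries, 0 of the genes passed limma's adjusted threshold. All 35 were tested except with the filter at mean 5 RPKM, where 29 were. The smallest adjusted p lay between 0.104 (robust variances) and 0.446 (pseudocount 0.1). Of all transcripts, 13 were called higher and 12 lower with the filter at mean 5 RPKM. With robust variances these were 16 and 17, and under the others 0 and 0. At an unadjusted limma p under 0.05 there were between 8 genes higher (no filter, where 613 of all transcripts were) and 15 (replicate block, 468 of all). Leaving out a library, the median dF1 difference ranged from 0.21 (without dF1 replicate 1) to 0.71 (without dF1 replicate 2). The genes above wt without overlap ranged from 18 to 32. Below wt without overlap were 3 genes without wt replicate 1 (3661 of all 12215 transcripts) and 5 without dF1 replicate 1 (3415). There were 0 without wt replicate 2 (4587) or without dF1 replicate 2 (4430). The share of all transcripts above wt moved too, with 19 genes and 42.2% of all when wt replicate 1 was left out and 29 and 24.2% for wt replicate 2. For dF1 replicate 1 these were 18 and 36.5%, and for dF1 replicate 2 they were 32 and 27.3%. The direction of a gene changed under leaving out a library only. Ranges were -0.23 to 0.18 for Mx2, -0.38 to 0.34 for Isg20, -0.30 to 0.18 for Stat2, -0.19 to 0.62 for Ifih1, -0.027 to 0.41 for Dhx58, -0.14 to 0.83 for Oas1a, -0.049 to 0.90 for Oasl1, -0.0051 to 0.86 for Oasl2 and -0.23 to 0.96 for Ifi44. Without wt replicate 2, Mx2, Isg20 and Stat2 were at 0.18, 0.20 and 0.18, and without dF1 replicate 2 at 0.11, 0.34 and 0.03.

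The median dF4 difference was -0.21 at pseudocount 5, -0.39 with the filter at 5 RPKM, -0.29 after quantile normalization, -0.42 after median centring, and -0.48 to -0.18 with 1 wt library left out. Quantile normalization and median centring each counted 3 genes lower and 1 higher by the size rule, of 18 countable. Summed transcripts gave 5 lower and 1 higher, of 21 countable. Shares of all transcripts are not given for these settings or with 1 wt library left out, so nothing is drawn from the counts. With 1 wt library left out 7 to 8 were lower and 3 to 5 higher, of 29 genes counted. Both the wt level and the limit on the wt gap change there, and the cause was not tested.

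With the replicate number as a block, 0 genes passed (smallest adjusted p 0.272) and the median stayed at 0.43. The labels do not say that a number marks a shared day or litter. The correlation over transcripts of the replicate differences in wt and dF1 was 0.3, from 2 pairs.

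Depth limits the dF4 values, where 14 of the 35 genes rest on 10 reads or fewer. In wt and dF1 the depth is unknown, and 1 decimal is coarse for Ifit3, Cxcl10 and Ifit1.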
